A study of Mus musculus with 4 samples.

Results

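Histone-modifying enzymes of the Trithorax class and their counterparts were followed at the RNA level in mouse embryonic stem cells with and without a G784E change in Smarca4. The members are 39 named genes for histone methyltransferases and their shared subunits, lysine demethylases, acetyltransferases and class I deacetylases, chosen by name and found under their symbols among the 24428 genes of the tables. All 39 held enough reads to be tested. The G784E group consisted of 2 libraries of cells heterozygous for the mutation, in which 1 Smarca4 allele encodes the G784E protein fused to a V5 tag and the other encodes wild-type protein fused to GFP. The WT group consisted of 2 libraries of cells with the same GFP-tagged allele and a wild-type V5-tagged allele, so the tags are common to both groups. Cells were of strain 129SvEv at passage 15 to 20, kept untreated in medium with 15% serum and LIF, and each group is described without saying how many clones it came from. Nothing in the labels says that the replicates came from separate cultures, so the p-values measure only how far these libraries differ among themselves, possibly for technical reasons.

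Methylation of lysine 4 of histone H3 (H3K4) marks promoters and enhancers, and in mammals it is placed by the SETD1 and KMT2 enzymes, the relatives of yeast Set1 and Drosophila Trithorax. These enzymes work in complexes of the COMPASS type that share WDR5, ASH2L, RBBP5 and DPY30. Demethylases of the KDM families remove methyl groups from H3K4 and from other lysines, acetyltransferases such as p300 and CBP acetylate histones at active enhancers, and deacetylases remove the acetyl groups. In embryonic stem cells, many developmental genes carry H3K4 methylation together with the Polycomb mark on H3K27, and the BAF remodelling complex, whose ATPase is Smarca4, belongs to the Trithorax group in the genetic sense.

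Reads assigned to genes numbered 6226145 and 8895433 in the G784E libraries, against 7027108 and 10083442 in WT. Levels are counts relative to library size, scaled by the trimmed mean of M-values (TMM-scaled CPM), and 3 counts corresponded to 0.305 to 0.491 CPM. Smarca4 itself, counted over both alleles, stood at 3868 and 3580 CPM in G784E and 2423 and 2553 CPM in WT, with a log2 fold change of 0.58 (SE 0.19) that missed the threshold of an adjusted p under 0.05 (edgeR, adjusted p = 0.119). The count tables do not separate the mutant from the wild-type allele, so they do not check the genotype labels. Of the 10 embryonic stem cell markers examined, Pou5f1, Sox2 and Nanog stood between 134 and 239 CPM in all 4 libraries and none of the 10 passed the test. The 13 primitive endoderm markers all fell, with summed levels of 790 and 792 CPM in G784E and 6536 and 6874 CPM in WT. In bulk libraries, fewer cells of a type and less RNA per cell cannot be told apart.

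None of the 39 genes passed the adjusted test on group alone. At an adjusted p under 0.05 in edgeR's quasi-likelihood test, 0 of 39 were called, against 2.56% of the 15763 tested genes (0.672% higher and 1.89% lower in G784E). The smallest adjusted p among them was 0.121, for Setd1b. At an unadjusted p under 0.05, 7 genes lay higher and 1 lower in G784E (17.9% and 2.56% of the members), against 5.14% and 6.48% of all tested genes. These were the H3K4 methyltransferase genes Setd1b, Kmt2d, Kmt2c and Setd1a, the demethylase genes Kdm3a and Kdm5b and the acetyltransferase gene Kat2a on the higher side, and Kmt2e on the lower. DESeq2 called none of the members (smallest adjusted p = 0.0869, for Kdm3a), against 0.685% of all tested genes higher and 1.65% lower. Limma-voom called Setd1b (log2 fold change 0.74, adjusted p = 0.0156), against 1.18% of all genes higher and 2.31% lower. EdgeR with upper-quartile scaling called Kmt2d (0.52, adjusted p = 0.0433), against 0.939% higher and 1.85% lower. With the replicate number as a block, edgeR called 9 members higher and 1 lower, against 546 and 658 of the 15763 tested genes. The labels do not say what the replicate numbers mark, so the main test left the block out. Libraries of the same number were nevertheless alike in their share of reads without a unique gene. Whether the numbers mark a shared batch was not tested.

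The differences were small and mostly on the higher side in G784E. The log2 fold changes ran from -0.69 (Kdm4b) to 0.71 (Setd1b), with 30 of 39 above 0 and a median of 0.23, while 49.9% of all tested genes lay above 0 and their median was -0.00. For 36 of the 39 the 95% interval of the log2 fold change lay within a 2-fold change either way, the exceptions being Setd1b, Kmt2e and Kdm4b. Both G784E libraries were above both WT libraries for 21 members (53.8%) and below them for 2 (5.13%), whereas each direction held for 19.4% of all tested genes. Abundant genes as a whole also lay higher: of the 3685 tested genes at a mean of at least 50 CPM, a level chosen after the data were seen, 58.1% lay above 0, 30.3% were separated upwards and 17.5% downwards, and the median was 0.05. Of the 34 members at that level, 27 lay above 0, 19 (55.9%) were separated upwards and 1 downwards, and the median was 0.24. WT replicate 1 was the lowest of the 4 libraries for 26 of the 39 members, and G784E replicate 2 the highest for 23. The same counts were not made over all tested genes. Summed over all tested genes, WT replicate 1 was also the lowest library, at 922815 CPM, and G784E replicate 2 the highest, at 1.05e+06 CPM. Without WT replicate 1 the median was 0.10 over the 39 and 0.034 over all tested genes. Without G784E replicate 2 it was 0.07 over the 39 and -0.060 over all tested genes.

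**Figure D1:**
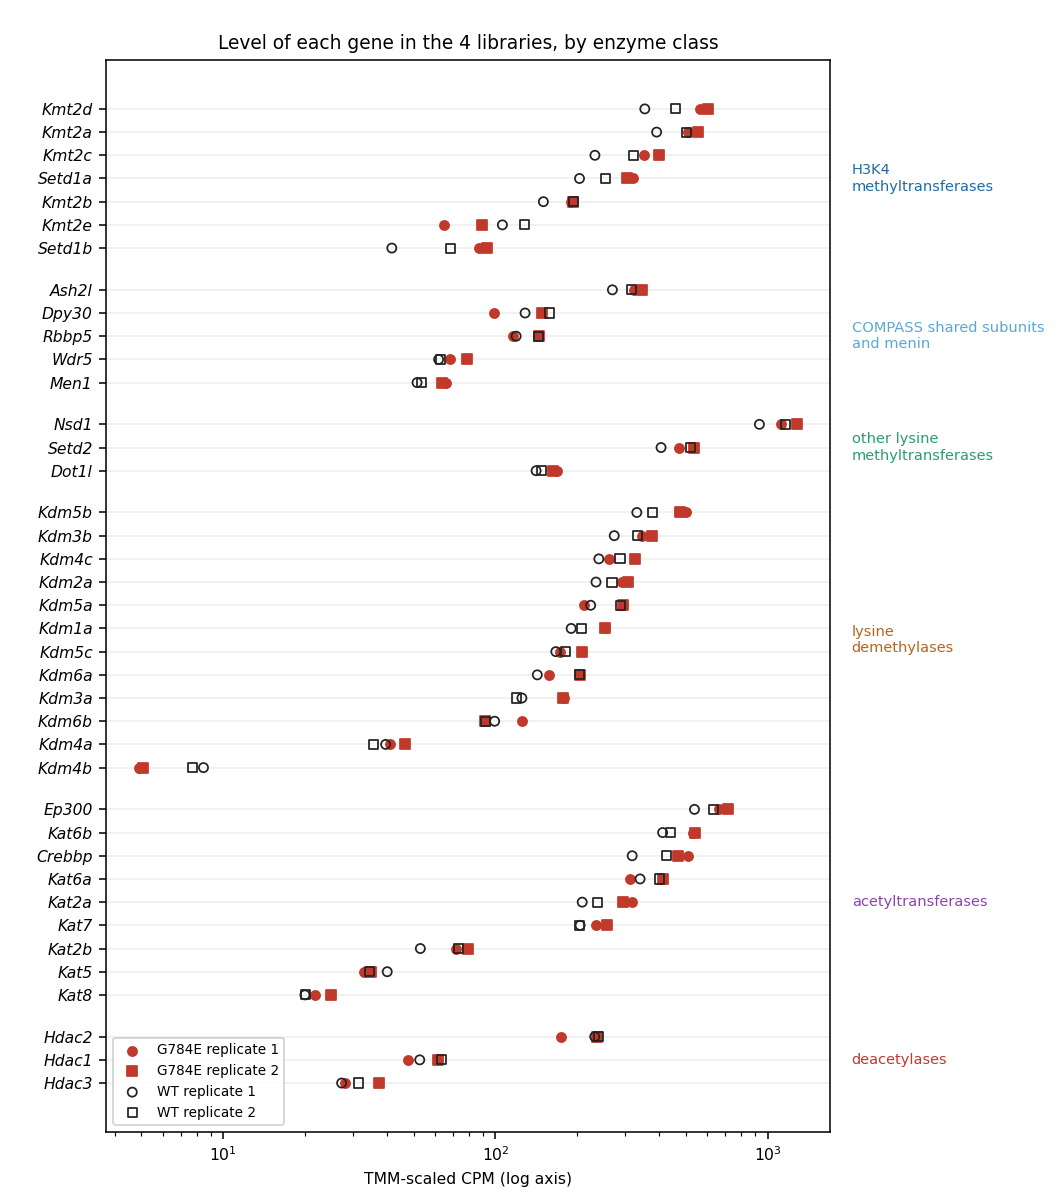
TMM-scaled CPM (log axis) of each of the 39 genes, ordered by class and within a class by level; filled red symbols are the G784E libraries, open symbols the WT libraries, circles replicate 1 and squares replicate 2. Levels span from about 5 CPM for Kdm4b to 1283 CPM for Nsd1, and for most genes the open circle, WT replicate 1, is the leftmost symbol.

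**Figure D2:**
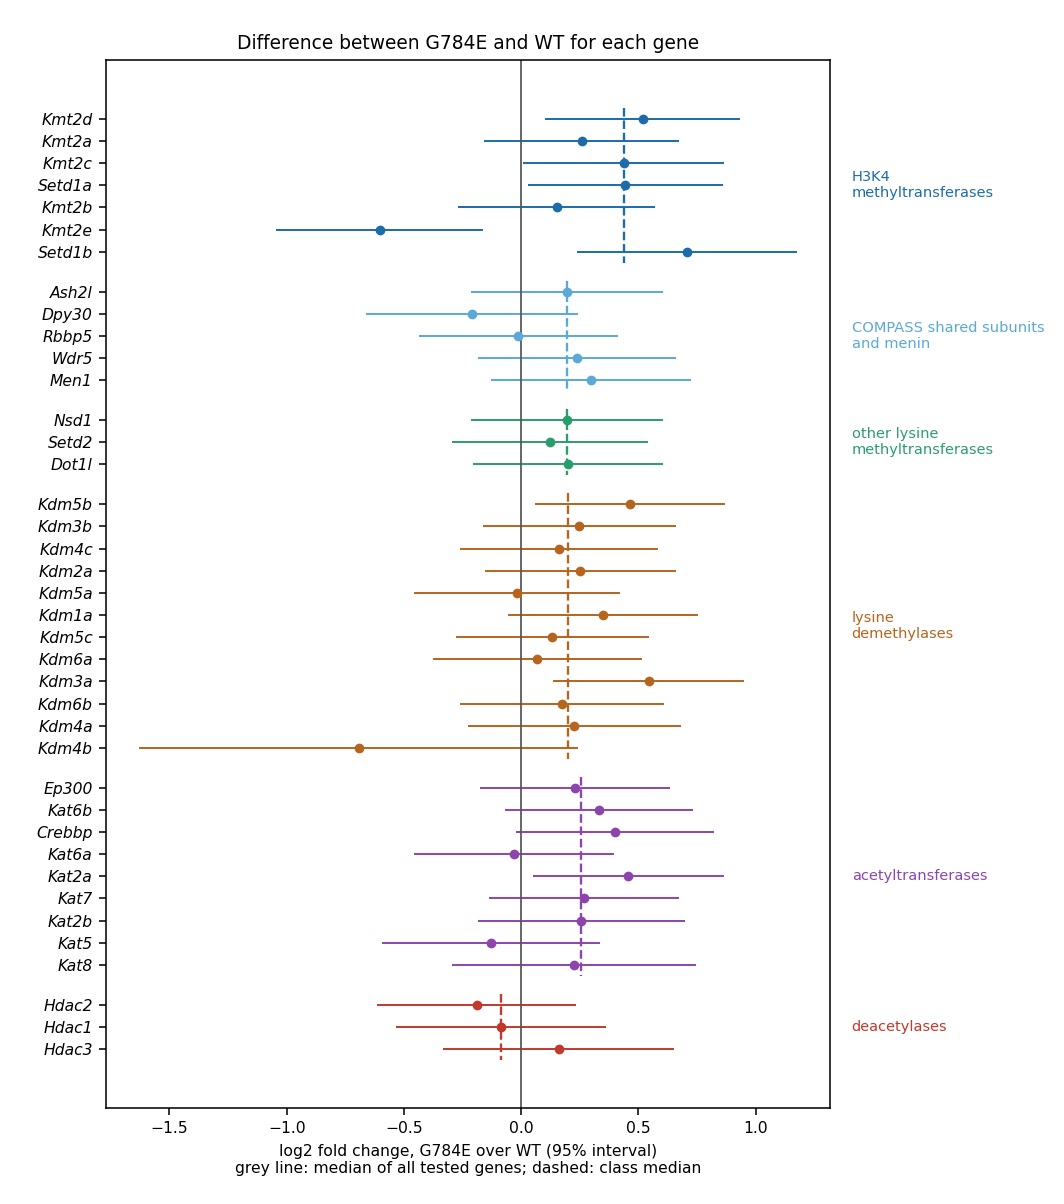
Log2 fold change of G784E over WT with its 95% interval for each gene, by class; the dashed line is the class median and the grey line the median of all tested genes. The H3K4 methyltransferases have the highest class median (0.44) and also hold Kmt2e at -0.60, and no gene passed the adjusted test on group alone.

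The H3K4 methyltransferases lay furthest above 0 of the 6 classes, with a median log2 fold change of 0.44. Of the 7, 6 lay above 0 and 4 had an unadjusted p under 0.05 on the higher side, and Kmt2e was the 1 below. Both G784E libraries exceeded both WT libraries for 5 of the 7. Over all tested genes, 19.4% were separated upwards and 5.14% had an unadjusted p under 0.05 on the higher side. The class median was 0.21 without WT replicate 1 and 0.64 without WT replicate 2, and the summed level of the 7 genes was 2088 and 2235 CPM in G784E and 1478 and 1929 CPM in WT. The markers of embryonic stem cells also lay mostly above 0, with 9 of 10 on that side, a median of 0.21, and summed levels of 3320 and 3309 CPM in G784E and 2708 and 3029 CPM in WT. Whether these markers have a part in the enzyme levels was not tested.

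Setd1b and Setd1a encode the catalytic subunits of the complexes that place most H3K4 trimethylation at promoters. Setd1b had 86.9 and 93.1 CPM in the G784E libraries and 41.6 and 68.3 CPM in the WT libraries. The groups did not overlap, but the WT libraries lay further apart than the nearer pair of G784E and WT libraries. The log2 fold change of Setd1b was 0.71, with an SE of 0.23 and a 95% interval of 0.24 to 1.18 (edgeR, adjusted p = 0.121). Without WT replicate 2 it passed, at 1.14 (edgeR, adjusted p = 0.0364), and without WT replicate 1 it was 0.39. Setd1a had 319 and 303 CPM in G784E and 204 and 254 CPM in WT, again without overlap, with a log2 fold change of 0.44 (SE 0.20; edgeR, adjusted p = 0.373) that ran from 0.29 to 0.64 with a WT library left out. Per kilobase of transcript, Setd1a was the most abundant of the 7 enzymes, at 48.0 CPM per kb in G784E and 35.2 in WT, and Setd1b the least, at 10.2 in G784E and 6.21 in WT.

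Kmt2c and Kmt2d encode the large enzymes that monomethylate H3K4 at enhancers. Kmt2d, which with Kmt2a had the highest levels of the class, had 564 and 602 CPM in G784E and 354 and 460.1 CPM in WT. Kmt2c had 353 and 397 CPM in G784E and 232 and 322 CPM in WT. In each case the lower G784E library was above the higher WT library, and WT replicate 1 was the lowest. The log2 fold changes were 0.52 (SE 0.20; edgeR, adjusted p = 0.252) for Kmt2d and 0.44 (SE 0.21; adjusted p = 0.419) for Kmt2c. Kmt2d lay at 0.33 without WT replicate 1 and at 0.75 without WT replicate 2, and Kmt2c at 0.21 without WT replicate 1 and at 0.72 without WT replicate 2. The related pair Kmt2a and Kmt2b, mammalian counterparts of Drosophila Trithorax, lay closer to no difference, at 0.26 (SE 0.20) and 0.15 (SE 0.20). Kmt2a had 512 and 557 CPM in G784E and 391 and 502 CPM in WT without overlap, whereas Kmt2b overlapped between the groups.

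Kmt2e encodes a relative of these enzymes that has a SET domain but is not known for H3K4 methyltransferase activity in cells. It had 65.0 and 88.9 CPM in G784E and 106 and 128 CPM in WT, and was the only one of the 7 for which both G784E libraries were the lower. The log2 fold change was -0.60 (SE 0.21; 95% interval -1.04 to -0.16; edgeR, adjusted p = 0.185). It passed without G784E replicate 2, at -0.92 (edgeR, adjusted p = 0.0183), and was -0.40 without G784E replicate 1.

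Start regions of some of the H3K4 methyltransferase genes are shown for their CG dinucleotides. The CXXC domains of several H3K4 enzymes and their partners bind CG dinucleotides that are unmethylated. Neither binding nor DNA methylation was measured here. RefSeq promoter windows (build GRCm38.p6, from strain C57BL/6J and not from the cells studied) were matched by symbol for 26 of the 39 members, and the 250 bases before the start were read, using the first window listed where a gene had several. CG dinucleotides, a motif that reads the same on both strands, numbered 0 to 48 per window in the members. The median was 15 in the members and 14 in the tested genes. Windows with at least 15 made up 53.8% of the 26 members, 49.4% of 11916 tested genes and 27.5% of 27025 promoters in the table. The threshold of 15 and the windows printed were chosen after the values were seen. Kmt2a, at a log2 fold change of 0.26, had 29 CG and is not printed, and Kmt2b, Kmt2e and Setd1b had no window. Whether CG number goes with the differences was not tested. The windows of Kmt2c (minus strand, chr5:25498784-25499033, 48 CG), Kmt2d (minus strand, chr15:98871206-98871455, 26 CG) and Setd1a (plus strand, chr7:127777139-127777388, 25 CG) are the H3K4 methyltransferases in the table with an unadjusted p under 0.05, and CG is in capitals.
Kmt2c: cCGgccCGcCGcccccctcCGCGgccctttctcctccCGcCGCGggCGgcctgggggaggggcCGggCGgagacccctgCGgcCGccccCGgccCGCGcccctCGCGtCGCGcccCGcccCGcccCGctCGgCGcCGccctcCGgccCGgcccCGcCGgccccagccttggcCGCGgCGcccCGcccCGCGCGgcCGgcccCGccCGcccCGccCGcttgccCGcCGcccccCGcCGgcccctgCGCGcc
Kmt2d: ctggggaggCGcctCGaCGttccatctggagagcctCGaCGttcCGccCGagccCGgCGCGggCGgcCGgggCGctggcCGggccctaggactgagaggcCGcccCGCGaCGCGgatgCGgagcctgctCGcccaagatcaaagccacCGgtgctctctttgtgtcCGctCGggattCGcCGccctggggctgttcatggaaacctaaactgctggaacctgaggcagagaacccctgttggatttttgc
Setd1a: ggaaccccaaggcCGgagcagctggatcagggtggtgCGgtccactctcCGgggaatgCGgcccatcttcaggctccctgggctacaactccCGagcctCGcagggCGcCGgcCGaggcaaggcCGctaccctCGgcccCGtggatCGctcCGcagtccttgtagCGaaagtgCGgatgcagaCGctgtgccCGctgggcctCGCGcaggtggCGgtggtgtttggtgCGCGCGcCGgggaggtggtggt

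The shared subunits of the COMPASS complexes and menin lay on both sides of 0. Menin, encoded by Men1, joins the complexes of the KMT2A and KMT2B enzymes. Of these 5 genes, 3 lay above 0 and 2 below, none had an unadjusted p under 0.05, and the median log2 fold change was 0.19. That median was 0.057 when G784E replicate 2 was left out, 0.076 when WT replicate 1 was, and 0.28 when WT replicate 2 was. The summed level was 671 and 781 CPM in G784E and 630 and 733 CPM in WT, so the groups overlapped.

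Men1, at the high end, had 65.8 and 63.4 CPM in G784E and 51.5 and 53.5 CPM in WT. The groups did not overlap, and the log2 fold change was 0.30 (SE 0.21; edgeR, adjusted p = 0.704). Dpy30, at the low end, encodes the small subunit that stimulates the methyltransferase core. It had 99.0 and 149 CPM in G784E and 128 and 158 CPM in WT, with a log2 fold change of -0.21 (SE 0.22; edgeR, adjusted p = 0.881). G784E replicate 1 was the low library, and the value was 0.050 without it. Ash2l, the gene with the most reads of the 5, had 322 and 346 CPM in G784E and 269 and 315 CPM in WT (log2 fold change 0.19, SE 0.20; edgeR, adjusted p = 0.870). Wdr5, the scaffold subunit that binds the enzymes, had a log2 fold change of 0.24 (SE 0.20) and Rbbp5, which contacts the catalytic domain, of -0.01 (SE 0.21). Per kilobase of transcript, Dpy30 was the highest of the 5, at 157 CPM per kb in G784E and 182 in WT, and Men1 the lowest, at 21.7 in G784E and 17.6 in WT.

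The methyltransferases of other lysines stayed close together. All 3 lay above 0, from 0.12 to 0.20, with a median of 0.19 and no unadjusted p under 0.05. The median depended on single libraries, at 0.017 when G784E replicate 2 was left out, 0.034 when WT replicate 1 was and 0.35 when WT replicate 2 was. Setd2 lay at -0.046 with G784E replicate 2 out and at -0.055 with WT replicate 1 out. Dot1l stayed above 0, from 0.15 to 0.26 with each library left out in turn. Nsd1, which dimethylates H3K36, had the most reads of all 39 genes, at 1116 and 1283 CPM in G784E and 933 and 1165 CPM in WT. The groups overlapped, and the log2 fold change was 0.19 (SE 0.20; edgeR, adjusted p = 0.872). Setd2, the enzyme of H3K36 trimethylation in transcribed genes, had 473 and 539 CPM in G784E and 406 and 522 CPM in WT, with overlap (0.12, SE 0.20; adjusted p = 0.967 in edgeR). Dot1l, the H3K79 methyltransferase, had 168 and 163 CPM in G784E and 141 and 147 CPM in WT. Its groups did not overlap, at a log2 fold change of 0.20 (SE 0.20; edgeR, adjusted p = 0.861).

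Among the 12 lysine demethylase genes, 10 lay above 0, and Kdm3a and Kdm5b had an unadjusted p under 0.05. The class median was 0.20, and both G784E libraries were above both WT libraries for 6 genes and below them for 1. Over all tested genes, 19.4% were separated in each direction and 5.14% had an unadjusted p under 0.05 on the higher side. The summed level was 2543 and 2764 CPM in G784E and 2073 and 2398 CPM in WT. With a library left out the median ran from 0.09 (G784E replicate 2 out) to 0.35 (WT replicate 2 out).

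Kdm3a, a demethylase of mono- and dimethylated H3K9, had replicates that lay close together in both groups. It had 179 and 178 CPM in G784E and 125 and 119 CPM in WT. The log2 fold change was 0.54 (SE 0.20; 95% interval 0.14 to 0.95; edgeR, adjusted p = 0.200) and ran from 0.47 to 0.57 with each library left out in turn. Its relative Kdm3b had a log2 fold change of 0.25 (SE 0.20), likewise without overlap.

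The KDM5 enzymes remove H3K4 di- and trimethylation. Kdm5b, the demethylase gene with the most reads, had 500.2 and 476 CPM in G784E and 331 and 377 CPM in WT, without overlap (log2 fold change 0.46, SE 0.20; edgeR, adjusted p = 0.319). The paralogous genes Kdm5a and Kdm5c overlapped between the groups, at -0.02 (SE 0.21) and 0.13 (SE 0.20). Kdm1a, which removes H3K4 mono- and dimethylation within CoREST complexes, had 253 and 252 CPM in G784E and 190 and 207 CPM in WT. It lay at 0.35 (SE 0.20; edgeR, adjusted p = 0.546) and was the highest demethylase per kilobase of transcript, at 83.4 CPM per kb in G784E and 65.5 in WT.

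The KDM6 enzymes remove the Polycomb mark H3K27 trimethylation, and Kdm6a is also a subunit of the KMT2C and KMT2D complexes. Kdm6a had 157 and 205 CPM in G784E and 142 and 203 CPM in WT, so replicate 2 was the higher library in both groups (log2 fold change 0.07, SE 0.22). Kdm6b had 125 and 91.4 CPM in G784E and 99.3 and 92.1 CPM in WT, with G784E replicate 1 alone above the rest (0.17, SE 0.21). Both 95% intervals, -0.38 to 0.52 for Kdm6a and -0.26 to 0.61 for Kdm6b, lay within a 2-fold change.

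The KDM4 enzymes act on H3K9 and H3K36. Kdm4b had 30 and 43 counts in the G784E libraries and 64 and 76 in the WT libraries, or 4.91 and 5.07 CPM in G784E and 8.45 and 7.72 CPM in WT. It was the member with the fewest reads and the lowest log2 fold change, -0.69 (SE 0.45; 95% interval -1.63 to 0.24; edgeR, adjusted p = 0.668), although the groups did not overlap. Kdm4a and Kdm4c lay at 0.23 (SE 0.22) and 0.16 (SE 0.20). Kdm2a, a CXXC-domain demethylase of H3K36, had a log2 fold change of 0.25 (SE 0.20), with 291 and 307 CPM in G784E and 234 and 268 CPM in WT.

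The 9 acetyltransferase genes had a median log2 fold change of 0.26, with 7 above 0 and 6 without overlap on the higher side. Only Kat2a had an unadjusted p under 0.05. Over all tested genes, 19.4% were separated upwards and 5.14% had an unadjusted p under 0.05 on the higher side. Their summed level was 2695 and 2826 CPM in G784E and 2134 and 2467 CPM in WT. Leaving out G784E replicate 2 brought the class median to 0.11, and leaving out WT replicate 2 to 0.38.

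Kat2a encodes GCN5, the acetyltransferase of the SAGA and ATAC coactivator complexes. It had 317 and 295 CPM in G784E and 208 and 237 CPM in WT, without overlap (log2 fold change 0.46, SE 0.20; edgeR, adjusted p = 0.336). The paralogue Kat2b, which encodes PCAF, was lower per kilobase of transcript, at 16.2 CPM per kb in G784E and 13.6 in WT against 100.5 in G784E and 73.2 in WT for Kat2a. Its log2 fold change was 0.26 (SE 0.21), and the groups overlapped.

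Ep300 and Crebbp encode p300 and CBP, which acetylate H3K27 at enhancers and promoters. Ep300, the acetyltransferase gene with the most reads, had 663 and 713 CPM in G784E and 539 and 634 CPM in WT, without overlap (log2 fold change 0.23, SE 0.20; edgeR, adjusted p = 0.803). Crebbp had 511 and 468 CPM in G784E and 318 and 424 CPM in WT, also without overlap (0.40, SE 0.20; edgeR, adjusted p = 0.476). For both genes WT replicate 1 was the lowest library, and without it Crebbp lay at 0.20 and Ep300 at 0.11.

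The MYST acetyltransferases lay on both sides of 0. Kat6b and Kat7, which acetylate histone H3 with BRPF scaffold proteins (Kat7 also histone H4), lay at 0.33 (SE 0.19) and 0.27 (SE 0.20) without overlap, and Kat8, the H4K16 acetyltransferase, at 0.23 (SE 0.25). Kat6a lay at -0.03 (SE 0.21), with 311 and 414 CPM in G784E and 340.0 and 401 CPM in WT. Kat5, which encodes TIP60 of the TIP60-p400 complex, had the lowest log2 fold change of the class. It had 32.9 and 35.0 CPM in G784E and 40.0 and 34.4 CPM in WT, with overlap (-0.13, SE 0.23; edgeR, adjusted p = 0.973).

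The class I deacetylase genes showed no separation between the groups. All 3 overlapped, with log2 fold changes from -0.19 to 0.16 and a median of -0.08. Hdac2, which had the most reads of the 3, stood at 175 and 237 CPM in G784E and 232 and 239 CPM in WT (-0.19, SE 0.21; edgeR, adjusted p = 0.890). The low library was G784E replicate 1, and the value was 0.0083 without it. Hdac1 had 47.6 and 61.6 CPM in G784E and 52.7 and 63.3 CPM in WT (-0.08, SE 0.22). Hdac3, a deacetylase that works in corepressor complexes, had 28.0 and 37.3 CPM in G784E and 27.2 and 31.4 CPM in WT (0.16, SE 0.24; edgeR, adjusted p = 0.955). Whether the deacetylases differ from the other classes was not tested.

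**Figure D3:**
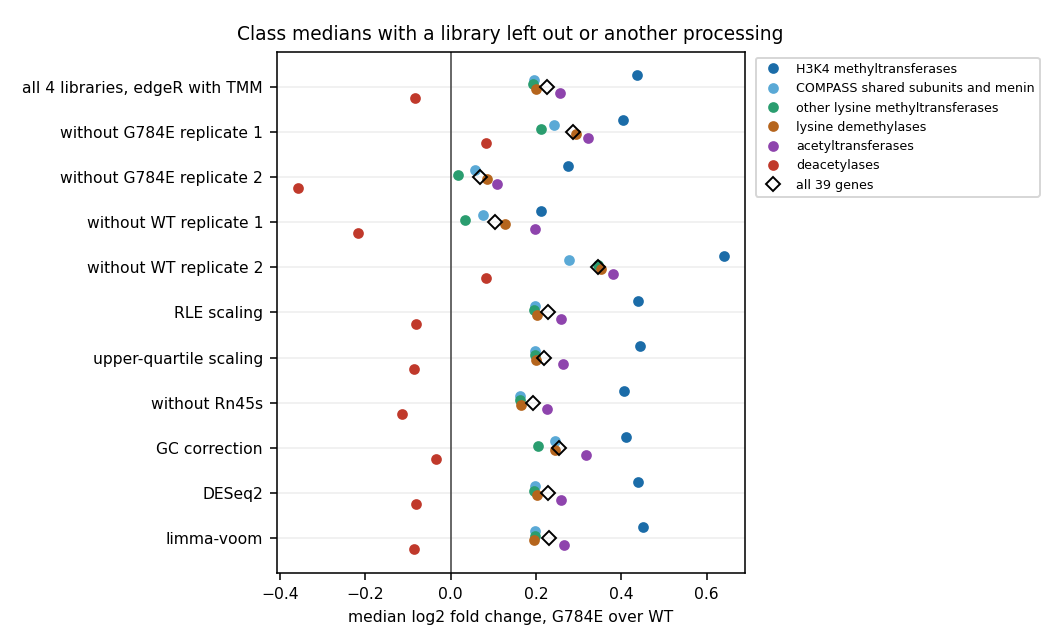
Median log2 fold change of G784E over WT for each class (coloured circles) and for all 39 genes (open diamonds), with all libraries, with each library left out and under other scalings or tools. Changes of scaling or tool hardly move the medians, whereas leaving out a library moves the H3K4 methyltransferases between 0.21 and 0.64 and the deacetylases between -0.36 and 0.08.

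Transcript properties of the members were set beside the differences. Members had a median transcript length of 6363 bases, against 3160 for tested genes with a matched transcript, and a median GC content of 50.2% against 49.9%. Across the 39 genes the log2 fold change had a Pearson correlation of 0.25 with GC content and 0.30 with length, and over 15647 tested genes of -0.00 and -0.02. These are descriptions across genes that share the same 4 libraries. With each library corrected for GC content, the median was 0.25 over the 39 genes and 0.035 over all tested genes, so both medians moved up. Of the 39, 33 lay above 0, and 0 were called, against 0.603% of all tested genes higher and 1.61% lower.

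A wider list of 98 further genes for related enzymes, complex subunits and readers in the tables was examined beside the 39, with 97 tested. Of these, 1 rose and none fell, beside 0.672% and 1.89% of all tested genes. The median log2 fold change was 0.18, with 62 above 0 beside 49.9% of all tested genes. The list's median was 0.0097 when G784E replicate 2 was left out, 0.093 when WT replicate 1 was and 0.26 when WT replicate 2 was. The median of all tested genes was then -0.060, 0.034 and 0.018. At an unadjusted p under 0.05, 13 lay higher and 1 lower, beside 5.14% and 6.48% of all tested genes. The gene that rose was Gse1, which encodes a protein found with the CoREST and class I deacetylase complexes. Gse1 had 216 and 221 CPM in G784E and 110.0 and 146 CPM in WT, 1.71-fold higher (log2 fold change 0.77, SE 0.21; edgeR, adjusted p = 0.0417). It also passed in DESeq2 (0.77, adjusted p = 0.00977) and limma-voom (0.78, adjusted p = 0.00351). The call was lost in edgeR without Rn45s (0.74, adjusted p = 0.0591), under RLE scaling (0.77, adjusted p = 0.0661), after GC correction (0.74, adjusted p = 0.107) and when no genes were filtered (0.73, adjusted p = 0.114). It was also lost in edgeR with any single library left out (adjusted p from 0.0577 to 0.819), where the log2 fold change ran from 0.57 without WT replicate 1 to 1.02 without WT replicate 2.

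Several partners of the members were among the 13, named here after their values were seen. Taken from that side only, they do not show how partners lay as a group. Of the 97 tested genes of the wider list, 35 lay below 0. Both G784E libraries were above both WT libraries for 37 and below them for 14, beside 19.4% of all tested genes in each direction. Cxxc1, the CXXC subunit of the SETD1 complexes, lay at 0.51 (SE 0.21; edgeR, adjusted p = 0.277). Rcor2, a CoREST partner of Kdm1a, lay at 0.61 (SE 0.22; adjusted p = 0.187 in edgeR). Tada3 and Sgf29, subunits of the Kat2a complexes, lay at 0.50 (SE 0.20) and 0.55 (SE 0.24), and Brpf3, a scaffold of MYST complexes, at 0.65 (SE 0.21; edgeR, adjusted p = 0.120). Some other genes of the same complexes lay lower or overlapped between the groups. Rcor3 lay at -0.39 (SE 0.33) and Rcor1 at 0.14 (SE 0.22). The SAGA subunits Supt20 and Supt3 lay at -0.31 (SE 0.21) and -0.18 (SE 0.66), and Brd1, a scaffold like Brpf3, at 0.16 (SE 0.20). The gene with an unadjusted p under 0.05 on the lower side was Whsc1, the Nsd1 relative also called Nsd2. Whsc1 had 135 and 134 CPM in G784E and 180 and 177 CPM in WT (-0.41, SE 0.20, edgeR, adjusted p = 0.426).

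**Figure D4:**
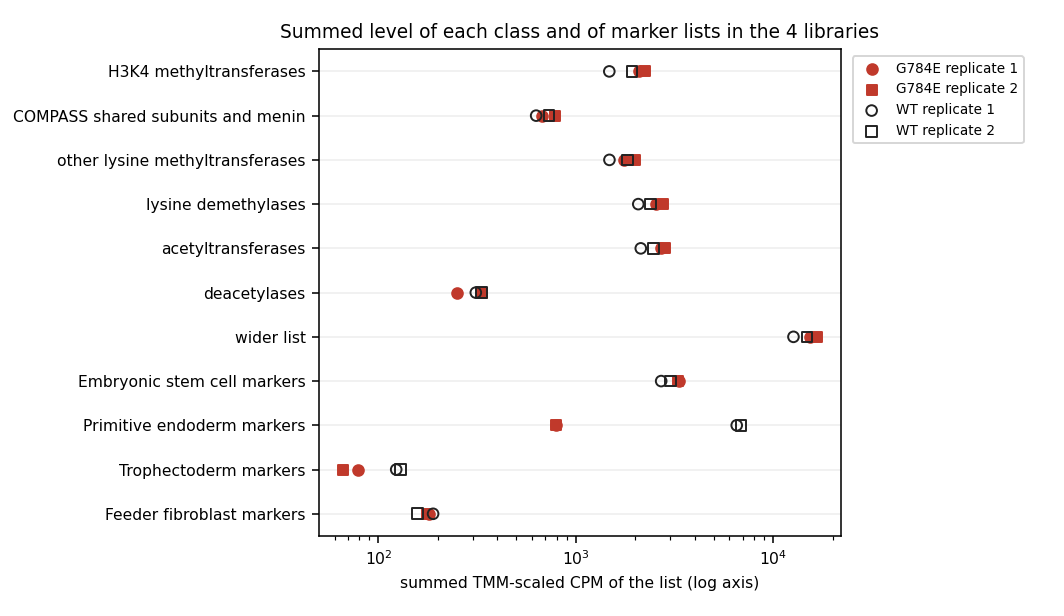
Summed TMM-scaled CPM (log axis) of each enzyme class, of the wider list and of cell type marker lists in the 4 libraries; filled red symbols are G784E, open symbols WT. Primitive endoderm markers differ between 790 to 792 CPM in G784E and 6536 to 6874 CPM in WT, whereas the enzyme classes differ far less. The sums of the H3K4 methyltransferases, demethylases and acetyltransferases are still higher in both G784E libraries than in either WT library, and those of the other classes overlap.

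Markers of other cell types gave the following levels in the same libraries. Of the 13 primitive endoderm markers all fell, with log2 fold changes from -4.68 to -2.03, and none was at 0 in any library. Of the 9 trophectoderm markers 3 fell (Krt18, Eomes and Krt8), beside 1.89% of all tested genes. The median was -1.26 and the sum was 79.2 and 66.1 CPM in G784E and 123 and 129 CPM in WT. The markers did not all lie on the lower side, as 7 lay below 0 and 2 above. Tfap2c lay higher without overlap, at 0.65 (SE 0.24, edgeR, adjusted p = 0.215). Cdx2 lay at 0.13 (SE 1.27) on 3 to 21 counts. Of the 7 tested feeder fibroblast markers none passed, and the sum over all 10 markers was 180.2 and 176 CPM in G784E and 189 and 158 CPM in WT. Their part in the enzyme levels was not tested.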

How the data were processed

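RNA-seq of poly(dT)-captured RNA was deposited by the authors as 1 table of whole-number gene counts for each library, without normalization. The submitters' processing notes name Bowtie2 2.1.0, CASAVA 1.8.2, DESeq2 and HTSeq, and build mm9. Neither notes nor labels state the annotation, the strand setting or the order of steps; without strand, antisense and other overlapping genes cannot be told apart. Summary rows for reads without a unique gene (83.3% to 88.7% of each table; reads not placed uniquely alone 55.4% to 61.8%) were left out, so reads shared by close paralogues do not count.

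Members and lists were chosen with earlier results of these data known. Counts were tested with edgeR 4.0.16 (R 4.3.3; TMM scaling, filterByExpr with minimum count 10 and total 15, quasi-likelihood test on group alone), which kept 15763 genes, with Benjamini-Hochberg adjustment over all of them and a threshold of 0.05. SEs are the log2 fold change divided by the square root of F, and 95% intervals use edgeR's moderated degrees of freedom. The common biological coefficient of variation was 0.317. Members were given by library if they had an unadjusted p under 0.05 or were highest or lowest in fold change or highest in mean CPM of their class; others so given were added later. An exact permutation test of 2 against 2 libraries cannot go below p = 0.333 and was not used. GC content and length came from GENCODE M21 transcripts (GRCm38), the longest coding transcript per symbol, matched for 99.3% of tested genes. Alternatives were RLE and upper-quartile scaling, 2 other filters, DESeq2 1.42.0, limma-voom (limma 3.58.1), a robust prior, no Rn45s, GC correction (lowess span 0.3), a replicate block, and each library left out; those for the wider list, Gse1 and Smarca4, and the comparison with genes of at least 50 CPM, were added after seeing the data. Procedures were tested on simulated counts. The result of 1 gene of the wider list is not reported here.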

Additional observations from a re-analysis of the deposited data

How the results depend on the processing

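Precision is set by 2 libraries per group: SEs of the 39 log2 fold changes ran from 0.19 to 0.45, the largest for the lowly counted Kdm4b, and intervals cover the spread between these libraries. Leaving out 1 of the 4 leaves 1 residual degree of freedom, and the single library remaining in that group is taken to vary as the other group does.

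No member was called with RLE scaling, no filter, a stricter filter (50 counts in total and 1 CPM or more in 2 libraries), DESeq2, a robust prior, without Rn45s or with GC correction, and 1 was called higher with upper-quartile scaling and 1 in limma-voom. With each library left out, 0 to 1 members were called higher and 0 to 1 lower, and over all genes, at 106 higher and 298 lower with all libraries, 26 to 161 were higher and 150 to 579 lower; limma-voom called 186 higher. The labels give the groups the same replicate numbers without saying what they mark, and deviations of same-numbered libraries correlated at 0.49. With the replicate block, 9 members were called higher and 1 lower (546 and 658 of the 15763 tested genes); with the block and GC correction, 10 higher and 1 lower (793 and 681). The libraries also split by number in the share of summary rows. For replicate 1 this was 88.3% in G784E and 88.7% in WT, and for replicate 2 it was 83.7% and 83.3%. Reads in no annotated feature did not split so, at 26.5% and 26.6% in G784E and 29.5% and 27.7% in WT. Whether the numbers mark a shared batch was not tested. With 2 pairs and no label for the numbers, the main test did not pair the samples.

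In the wider list, the number called higher was 1 with all libraries, 0 with RLE scaling, no filter, no Rn45s or GC correction, 4 with upper-quartile scaling, 17 with the replicate block and 18 with the block and GC correction, and 0 to 1 with a library left out; 2 were lower with the block and 1 with the block and GC correction. With each library left out, the median over the members ran from 0.07 to 0.35, and that over all tested genes from -0.060 to 0.034. Class medians ran from 0.21 to 0.64 for H3K4 methyltransferases, 0.11 to 0.38 for acetyltransferases and -0.36 to 0.084 for deacetylases. The others ran from 0.057 to 0.28 for COMPASS subunits and menin, 0.017 to 0.35 for other lysine methyltransferases and 0.086 to 0.35 for demethylases. These last moved by over 1.5 times in size, although by less than 1 SD between replicates. That SD comes from the same differences between replicates, so a move within it is close to fixed in advance and is no sign of stability.

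Of the members' values under alternatives, 25 had the opposite sign to that of the main test, none of them called in either. With GC correction these were Rbbp5 (0.054), Kdm5a (0.061) and Kat6a (0.034), and with the block added 0.054, 0.058 and 0.026. With libraries left out, the ranges were -0.032 to 0.38 (Kmt2b), -0.25 to 0.16 (Rbbp5), -0.61 to 0.050 (Dpy30), -0.055 to 0.35 (Setd2), -0.21 to 0.38 (Kdm6a), -0.070 to 0.31 (Kdm6b), -0.34 to 0.21 (Kdm5a), -0.082 to 0.26 (Kdm5c), -0.078 to 0.33 (Kdm4c), -0.32 to 0.16 (Kat6a), -0.36 to 0.084 (Hdac1), -0.50 to 0.0083 (Hdac2) and -0.14 to 0.34 (Hdac3). The cause of these moves was not tested.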
